A study of Mus musculus with 2 samples.

Results

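A set of 10 genes of prohormone processing and granin storage, Pcsk1, Pcsk2, Cpe, Pam, Pcsk1n, Scg5, Chga, Chgb, Scg2 and Scg3, was looked up by name in a table of genes nearest to DNA methylation differences in E14.5 mouse pancreas. They were taken by function, with earlier results of these data known, as 10 of 21887 protein-coding genes. The authors' deposited table names 3421 distinct annotated genes in all. The table compares whole-genome bisulfite sequencing of 1 library from Ngn3eGFP/+ cells with 1 library from Ngn3eGFP/eGFP cells, called heterozygous and null here. Both groups came from a mixed, mostly ICR strain, carry the eGFP reporter at the Ngn3 locus (current symbol Neurog3), on 2 alleles in the null cells and 1 in the heterozygous cells, and were sorted for eGFP. The number of embryos pooled and their sex were not stated in the labels. In the labels the heterozygous cells are islet progenitors and those of null embryos endocrine progenitors, so genotype cannot be told apart from differences in cell stage or composition. The table has no expression values, so neither the cell labels nor the genotype could be checked against marker genes.

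Peptide hormones are made as longer precursors that are cut and trimmed inside dense-core secretory granules. The convertases encoded by Pcsk1 and Pcsk2 cut after paired basic residues, the carboxypeptidase encoded by Cpe removes the basic residues left at the new end, and the enzyme encoded by Pam turns a terminal glycine into an amide. Granins are acidic proteins that condense with the hormones in the granule, and their genes are widely used as markers of endocrine and neuroendocrine cells. In the pancreas Neurog3, a basic helix-loop-helix transcription factor, starts the endocrine programme from which the hormone-secreting islet cells arise.

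Of the 10 genes, Cpe and Pam were named near a methylation difference. Cpe and Pam were in the list of genes nearest to regions with higher methylation in null cells (the higher list), which is 2 of 10 genes, and 0 of 10 were in the list for lower methylation in null cells (the lower list). The other 8 were in neither. Of all protein-coding genes, 12.1% were in the higher list, 1.51% in the lower list, 0.503% in both and 86.9% in neither. Applied to 10 genes, 12.1% comes to 1.21 genes, so 2 named genes lie close to the background and are not a result about the group. The 0 in the lower list is close to its background too. With 1 library per genotype there is no replicate error, so no test was made and no p-value is given. The table holds names alone, each once per list, so the methylation level, the number of regions, their place in or near the gene and the coverage behind them are unknown.

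The reference sequence at the gene starts is shown because methylation is measured at CG dinucleotides, and Pam is a named gene whose start is dense in them. The windows run from 250 bases before to 50 after an annotated transcript start (RefSeq, GRCm38.p6) and are printed 5′ to 3′ on the gene's strand, with every CG in capitals. The Pam window is chr1:98095597-98095896, minus strand. Pcsk1 (chr13:75089607-75089906, plus strand) and Chga (chr12:102554691-102554990, plus strand) are shown beside it as a convertase and a granin that were in neither list.
Pam: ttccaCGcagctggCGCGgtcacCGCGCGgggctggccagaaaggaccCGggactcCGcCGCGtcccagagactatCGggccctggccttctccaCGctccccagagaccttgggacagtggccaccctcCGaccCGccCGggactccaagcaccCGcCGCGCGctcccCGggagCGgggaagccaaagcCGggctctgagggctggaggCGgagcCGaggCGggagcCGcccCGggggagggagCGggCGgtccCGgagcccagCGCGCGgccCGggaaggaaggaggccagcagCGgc
Pcsk1: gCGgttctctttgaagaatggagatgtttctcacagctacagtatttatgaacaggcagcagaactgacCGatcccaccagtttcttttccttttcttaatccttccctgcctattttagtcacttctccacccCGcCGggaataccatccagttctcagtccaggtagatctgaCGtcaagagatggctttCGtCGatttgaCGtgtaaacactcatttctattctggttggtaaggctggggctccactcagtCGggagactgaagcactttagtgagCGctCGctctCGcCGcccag
Chga: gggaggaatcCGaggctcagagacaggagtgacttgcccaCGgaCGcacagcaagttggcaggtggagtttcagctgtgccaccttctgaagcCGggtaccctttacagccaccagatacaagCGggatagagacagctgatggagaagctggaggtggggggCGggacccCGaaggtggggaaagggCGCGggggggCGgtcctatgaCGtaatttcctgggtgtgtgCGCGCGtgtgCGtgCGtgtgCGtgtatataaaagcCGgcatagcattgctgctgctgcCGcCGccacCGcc
The Pam window held 35 CGs, the Chga window 21 and the Pcsk1 window 13. These are properties of the reference genome, and whether any methylation difference lay in them is unknown.

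Such a window was at hand for 9 of the 10 genes, all but Cpe, so of the named genes Pam alone is described here. Their CG count ran from 9 in Scg5 to 36 in Pcsk2, with a median of 18, against a median of 13 over 17492 protein-coding genes, and 6 of the 9 were above that median. Pam stood at percentile 92.3 of all windows and Pcsk2 at 93.1, so a CG-dense start was found in a named gene and in an unnamed one. A second Pam window from another annotated start overlapped the first and held 38 CGs. Chgb had 31 CGs, Scg3 18, Scg2 16 and Pcsk1n 12. Across the table, windows of higher-list genes had a median of 19 CGs and those of other genes 12.

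**Figure D1:**
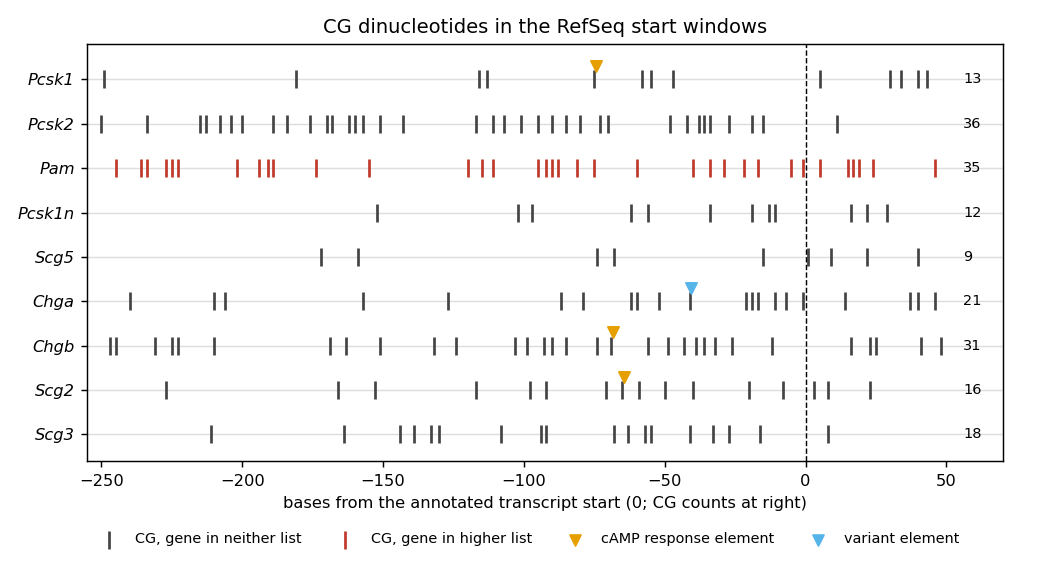
CG dinucleotides (ticks) along the reference windows of 9 genes, by distance in bases from the annotated transcript start; triangles mark the cAMP response element and its variant, and the number at the right is the CG count. Pam, the only gene of the higher list shown, has 35 CGs, close to the 36 of Pcsk2, which was in neither list.

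In total 4 of the 9 windows shared a short element that holds a CG at its centre. The cAMP response element TGACGTCA, a palindrome bound by the CREB family, was found in 3 of 9 windows (Pcsk1, Chgb and Scg2) and in 2.34% of the windows of all genes. The variant TGACGTAA was found in the Chga window and in 0.549% of all windows, searching both strands. The element began 78 bases before the start in Pcsk1, 72 in Chgb, 68 in Scg2 and 44 in Chga, and the 40 bases around it are printed with the element in capitals.
Pcsk1: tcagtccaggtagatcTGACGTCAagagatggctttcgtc
Chgb: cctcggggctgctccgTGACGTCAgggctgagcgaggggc
Scg2: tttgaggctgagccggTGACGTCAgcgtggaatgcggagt
Chga: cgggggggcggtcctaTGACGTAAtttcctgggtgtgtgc
These stretches lie at chr13:75089763-75089802 (plus strand), chr2:132781554-132781593 (plus strand), chr1:79440071-79440110 (minus strand) and chr12:102554881-102554920 (plus strand), in the same order. None of the 4 genes was in either list. The Pam window had neither form of the element. The E-box CAGATG, of the kind that Neurog3 and Neurod1 bind, was in 0 of the 9 windows and in 14.8% of all windows, counting both strands. The 3 motifs were not part of the planned comparisons and were picked with these genes and the table's entries known. Their shares are therefore a description and no test of enrichment. A match is a stretch of letters, not a measured binding site.

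The named genes Cpe and Pam are both long. Pam spans 275 kb of chromosome 1 (97821091 to 98095853 in GRCm38.p6, as are all gene positions here) and Cpe spans 101 kb of chromosome 8 (64592542 to 64693109). Long genes are named more often in this table, from 1.92% of the shortest length decile to 38.4% of the longest in the higher list. In the length decile of Pam 38.4% of genes were in the higher list, and in that of Cpe 21.0%. Among genes of like length, those differing by a ratio of at most 5 to 4, the shares were 44.5% for Pam and 26.6% for Cpe. These shares lie above the 12.1% of all protein-coding genes, though most genes of these lengths were not in the higher list.

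The convertase genes differ in length, and neither was named. Pcsk2 (chromosome 2, 143546133 to 143816284) is 270.2 kb long, near the length of Pam, and 44.8% of genes of like length were in the higher list. Pcsk1 (chromosome 13, 75089420 to 75134861) is 45.4 kb long, and 13.9% of genes of like length were named there. So Pam and Pcsk2, which are closely alike in length and in CG count at the start, had different entries in the table.

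The partners of the convertases were in neither list. Pcsk1n encodes proSAAS, an inhibitor of the Pcsk1 enzyme, and is a gene of 4.59 kb on chromosome X (7919822 to 7924410). Of genes of like length, 6.31% were in the higher list. Genes of chromosome X were seldom in the higher list, at 2.69% beside 12.1% of all protein-coding genes. In the lower list their share was 1.24%, close to the 1.51% of all protein-coding genes. Scg5 encodes 7B2, which the Pcsk2 enzyme needs to become active, and spans 52.8 kb of chromosome 2 (113776313 to 113829091). Of the genes of like length, 15.3% were in the higher list.

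The 4 granin genes were in neither list, and 3 of them are short. Chga (chromosome 12, 102554941 to 102565027) and Chgb (chromosome 2, 132781642 to 132795079) encode chromogranins A and B and span 10.1 and 13.4 kb. Scg2 (chromosome 1, 79434366 to 79440026), the precursor of secretoneurin, spans 5.66 kb. At these lengths between 6.26% and 8.01% of genes were in the higher list. Scg3 (chromosome 9, 75643366 to 75685959), whose protein helps to hold granins at the granule membrane, spans 42.6 kb, a length at which 13.4% were named. The shares of the length deciles, summed over the 10 genes, came to 1.67 genes for the higher list, beside the 2 found, and to 0.204 for the lower list, beside 0.

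**Figure D2:**
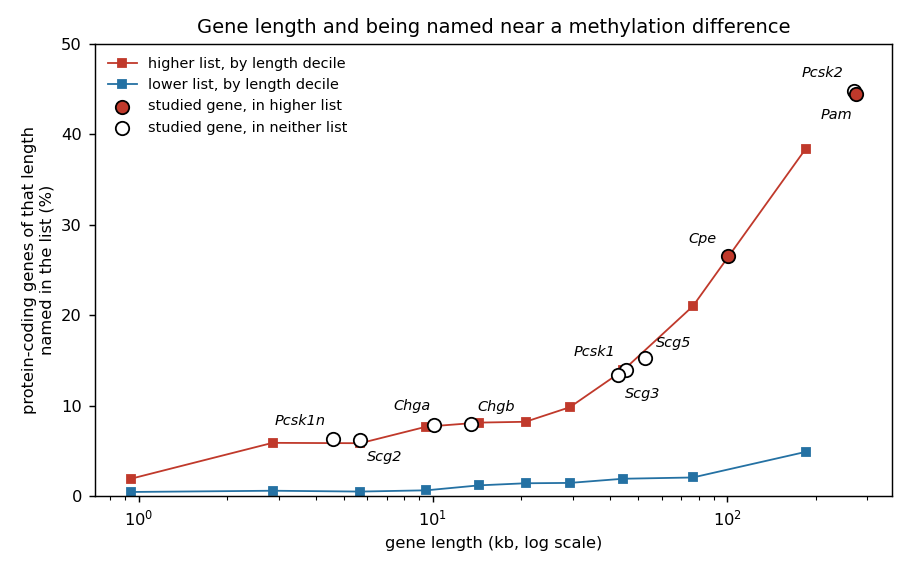
Share of protein-coding genes named in each list (y, percent) against gene length (x, kb, log scale): squares are length deciles at their median length, and circles are the 10 genes at the higher-list share of genes of like length (a ratio of at most 5 to 4). Cpe and Pam (filled) were in the higher list at 26.6% and 44.5%, while Pcsk2 (open) was in neither at 44.8%.

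The amount of genome that lies closer to a gene than to its neighbours was also described. How the authors defined the nearest gene is not given, so this span may differ from the one they used. Counting each gene together with the nearer part of the gaps to its protein-coding neighbours, this span was 507 kb for Pcsk2, 472 kb for Pcsk1, 451 kb for Pam, 396 kb for Scg2 and 306 kb for Cpe. All 5 fell in the top decile of spans, where 30.1% of genes were in the higher list, and 3 of these 5 were not named. Scg2 is a short gene that stands alone, with 614 kb to the nearest protein-coding gene on the side of lower coordinates and 167 kb on the other. The other 5 had spans between 10.7 kb (Pcsk1n) and 90.1 kb (Scg3).

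Regions beside these genes could have been credited to a neighbour, which was not tested. Of the 41 protein-coding genes taken as the 2 on each side of each gene, plus Eras, which overlaps Pcsk1n, 4 were higher-list genes and 0 lower-list genes. That is 9.76%, beside the background of 12.1%. The closest was Gin1, 27.4 kb from Pam and also in the higher list. Bmp5, a BMP ligand gene, lay 89.4 kb from Scg3. Kcne4, a potassium channel subunit gene, lay 614 kb from Scg2, and Glrx, the glutaredoxin gene, 705 kb from Pcsk1. For Cpe none of the 4 neighbours was named: Tll1 and Sgo2b on one side, Msmo1 and Klhl2, the latter at 46.6 kb, on the other. The other neighbours of Pam, Ppip5k2, Slco6d1 and Cntnap5b, were in neither list. Beyond these neighbours, the nearest higher-list genes were Glod5, 79.8 kb from Pcsk1n, Rin3, 164 kb from Chga, Apela, 335 kb from Cpe, and Mgme1, 455 kb from Pcsk2. For Scg5 and Chgb the nearest were BC052040 at 1752 kb and Tmx4 at 1799 kb. The 9 genes of any class that overlap these loci, among them Pcsk2os2 within Pcsk2, Pcsk2os1 across its edge and 5 noncoding genes or pseudogenes at Pam, were in neither list.

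**Figure D3:**
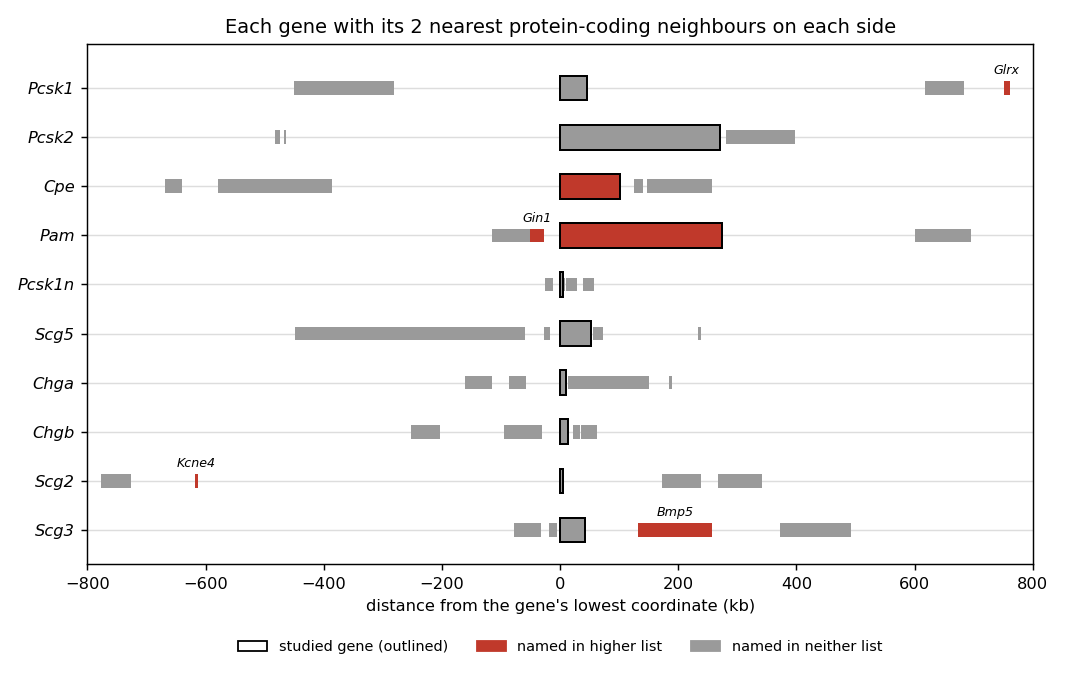
The 10 genes (outlined bars) and their 2 nearest protein-coding neighbours on each side, by distance in kb from the lowest coordinate of each gene, drawn up to 800 kb and at a width of at least 4 kb; red is the higher list and grey neither list. Pam and its neighbour Gin1 are both red, Cpe is red with no red gene among its drawn neighbours, and Bmp5, Kcne4 and Glrx are red beside genes that were not named. Higher-list genes beyond the 2 nearest on each side are not drawn, such as Apela, 335 kb from Cpe.

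The wider pathway was described over 7 lists of processing and granule cargo genes. Outside the 10 genes these held 79 distinct genes, of which 16 were named as higher and 1 as lower, beside backgrounds of 12.1% and 1.51%. The shares of their length deciles summed to 9.41 genes in the higher list, beside the 16 found. By list, these sums were 1.69 for convertases (2 found), 1.33 for carboxypeptidases (3 found) and 2.17 for modifying enzymes (4 found). They were 0.689 for granins and related proteins (1 found), 3.09 for granule membrane genes (5 found) and 1.96 for hormone precursors (3 found). For convertase inhibitors and helpers the sum was 0.355, with 0 found. Members of the 10 are included in the sums and counts by list. Shares at like length or by span were not summed for these lists. For the 10 genes those sums were 1.87 and 1.94, above the 1.67 of the length deciles. The decile sums may therefore be too low a background for the lists. These lists were chosen with earlier results of this table known, so their counts are a description.

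Among 8 proprotein convertase genes, Pcsk5 and Pcsk6 were in the higher list. Both are expressed in many tissues outside endocrine cells. Pcsk5 spans 405 kb of chromosome 19 and Pcsk6 188 kb of chromosome 7. Furin, Pcsk4, Pcsk7 and Mbtps1 were in neither list, as were Pcsk1 and Pcsk2. Of the 8 genes of the carboxypeptidase family of Cpe, 3 were in the higher list: Cpe, Cpm (57.9 kb) and Cpxm2 (122 kb). Cpm encodes a membrane-anchored carboxypeptidase, and Cpxm2 a family member held to lack enzymatic activity. Cpd, whose enzyme acts in the trans-Golgi network, was in neither list.

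Of 14 genes of amidation and other precursor modification, 4 were higher-list genes and 0 lower-list genes. Beside Pam these were Tpst1, a tyrosine sulfotransferase gene of 62.4 kb, Galnt2, a gene of 114 kb that starts O-linked glycosylation, and Ero1b, a gene of 43.7 kb for an endoplasmic reticulum oxidase that helps proinsulin to fold. The glutaminyl cyclase genes Qpct and Qpctl were in neither. Of the 4 convertase inhibitors and helpers, which include Pcsk1n and Scg5, 0 were named in either list. The list of granins and related proteins had 1 of 8 in the higher list, and this was Nnat, an imprinted gene for an endoplasmic reticulum membrane protein, which is not a granin. Vgf, the gene of a granin-like precursor, was in neither list.

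Genes of the granule membrane and of granule formation had 5 of 17 named as higher and 1 as lower. Ptprn2 encodes the granule membrane protein phogrin and is the longest of them, at 792 kb. Ica1 (148 kb) and Vps41 (149.5 kb) serve granule formation and sorting. Bace2 (86.2 kb) encodes a beta cell protease that cuts collectrin, and Scgn (37.9 kb) the calcium sensor secretagogin. Cltrn, the collectrin gene on chromosome X, was the single gene in the lower list. Ptprn, the paralogue of Ptprn2, and the zinc transporter gene Slc30a8 were in neither list.

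Hormone and neuropeptide precursors, the substrates of these enzymes, had 3 of 32 named as higher and 0 as lower. The 3 named were Ins1 (insulin, 0.719 kb), Cck (cholecystokinin, 5.87 kb) and Pnoc (nociceptin, 24.9 kb). The share of 9.38% lay below the background of 12.1%. These are mostly short genes, and their length deciles summed to 1.96, so the 3 found lay above that sum. As markers of another pancreatic cell type, 14 acinar zymogen genes had 1 in the higher list, the elastase gene Cela1, and 0 named as lower. Whether acinar cells in the sort take part in any entry was not tested.

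**Figure D4:**
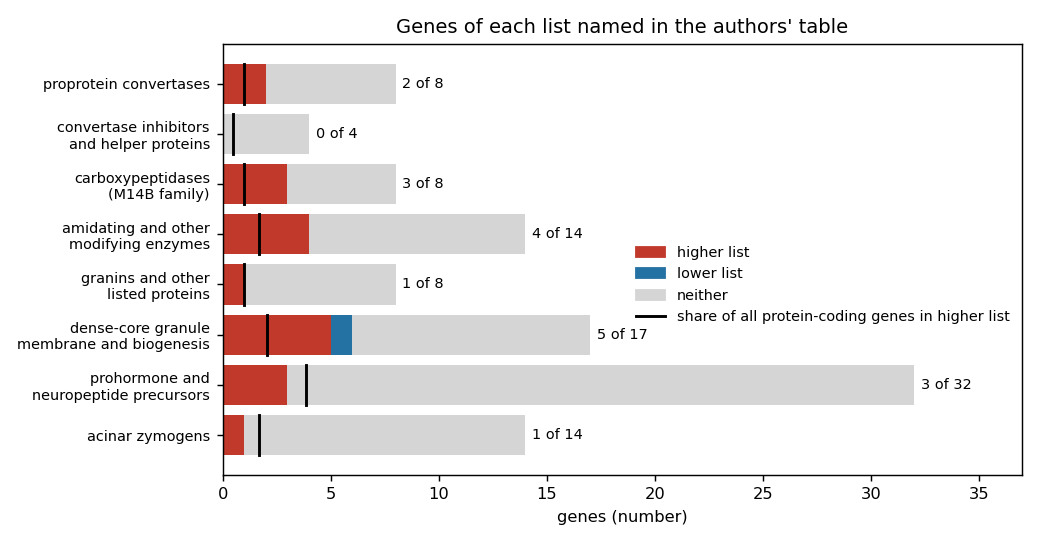
Number of genes of each list in the higher list (red), the lower list (blue) or neither (grey) of the authors' deposited table; the black line is 12.1% of the list, the background share for the higher list. Convertases (2 of 8), carboxypeptidases (3 of 8), modifying enzymes (4 of 14) and granule membrane genes (5 of 17) reach past the line. So, barely, does the list of granins and other proteins (1 of 8), through Nnat, which is not a granin. Convertase helpers (0 of 4), hormone precursors (3 of 32) and acinar zymogens (1 of 14) do not. The line takes no account of gene length. Pcsk1n and Scg5 stand in 2 lists each.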

How the data were processed

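Sorted eGFP-positive cells (over 95% viable) were lysed, and, per the labels' protocols, 75 ng of DNA was tagmented with Tn5, bisulfite-converted, amplified for 12 cycles and sequenced as 150 bp paired ends, with about 400000000 reads per library. Bisulfite reads do not separate methylation from hydroxymethylation, and PCR duplicates, uneven tagmentation and incomplete conversion can change a call. Trim Galore and the builds mm10 and GRCm38 are named in the submitters' processing notes. Not given in the sources used here are the aligner, the region caller with its thresholds, and how the nearest gene was defined.

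The table that the authors deposited has 9 columns and holds gene names and no measured quantity. Per the file headers, column 1 (429 names) is the lower list and column 2 the higher list. The 7 columns without a header carry on its alphabetical order and were read with it (3230 names in all). The design allowed for no more than names, so no level, count model or error was computed.

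The 10 genes were looked up ignoring case (the table spells CPE and PAM). For backgrounds and other lists, names were matched to current symbols, gene IDs or unique older symbols of RefSeq GRCm38.p6, which gave 406 and 3145 genes. The code for this matching was tested on simulated data built from names of the same annotation. That test cannot show whether outdated or ambiguous names of the authors were matched rightly. Unmatched were 23 names of the lower list and 85 of the higher list. A few genes of the lists are not reported here and were left out of their counts. The genes and lists were chosen with earlier results of these data known. Text names all 10 genes, list members in either list, some unnamed members as contrast (chosen after seeing the table) and neighbours. Python 3.11.15, numpy 2.4.6 and matplotlib 3.10.9 were used.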

Additional observations from a re-analysis of the deposited data

How the results depend on the processing

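Of 43 alternative values computed, 37 stayed within 1.5 times the reported one and 6 did not. With exact spelling of the current symbol, or with column 2 read alone, 0 of the 10 genes were in the higher list instead of 2, because the table spells both names in capitals and they stand in later columns. Older symbols and gene IDs added none. Over all gene classes the backgrounds fell to 6.29% (higher list) and 0.812% (lower list), with 49997 genes counted instead of 21887; the cause was not tested. With current symbols only, granule membrane genes had 0 in the lower list, because Cltrn was matched by an older symbol. With neighbours of any gene class, 2.04% were in the higher list, beside the 6.29% of all gene classes. With protein-coding neighbours it was 9.76%, beside 12.1% of protein-coding genes. The cause of the fall was not tested. Deciles of the span around a gene, chosen after seeing the data, gave 1.94 genes over the 10, beside 1.67 by length. No paired analysis was possible because there was 1 library per genotype, and no replicate could be left out. Depth per region is unknown.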
